A study of Mus musculus with 18 samples.

Results

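Solute carriers are the membrane proteins that move amino acids, sugars, ions, metals, nucleotides and other small molecules into and out of cells and organelles. The members described here are the genes whose symbol begins with Slc and a digit and that had a probe set at a log2 level of at least 7 in 2 or more of 18 arrays, with the brightest such probe set standing for each gene and 1 gene left out by the rule. Of 347 such symbols on the array, 129 passed. Of these, 109 lay at 7 or more in all 18 arrays, and the other 20 lay under 7 in at least 1 array. The members were thus chosen by their measured level, so a level is given here as a description and has no test.

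The arrays held RNA of mouse embryonic fibroblasts, primary connective tissue cells grown from E12.5 to E14.5 embryos without head, liver and blood clots. Their genotype was wt, or heterozygous or homozygous for an allele described as constitutively active, which the series title places in the receptor TGFBR1 and the design text calls TGFb1. TGFb1 was added to each genotype at 5 ng/mL and RNA taken at 4 h or at 24 h, beside untreated cells. This gave 9 groups of 2 arrays. The labels give no time for the untreated arrays, and the same untreated group of a genotype was the baseline for 4 h and 24 h. A TGFb response here is the difference from that group. The part of time in culture or handling in it, or in 24 h against 4 h, was not tested. All groups shared 1 medium, DMEM with serum, glutamine, non-essential amino acids and 2-mercaptoethanol, and no label says how many embryos or cultures stood behind the arrays of a group. P-values here therefore measure the spread between arrays, which may be technical, and 2 arrays a group limit the precision.

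TGFb is a secreted factor that signals through receptor kinases and the Smad transcription factors. In fibroblasts it is best known for raising collagen and other matrix proteins, whose synthesis draws on imported amino acids, glucose and metals. The solute carrier superfamily is divided into numbered families by sequence. Most SLC25 carriers sit in the inner membrane of mitochondria. The SLC35 carriers bring nucleotide sugars into the Golgi and the endoplasmic reticulum, and SLC39 and SLC30 carriers move zinc into and out of the cytosol.

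Promoter sequences of RefSeq (build GRCm38.p6), from 250 bases before to 50 after the start, were found for 101 of the 129 members, 141 promoters in all. Each was searched on both strands for 5 short motifs: the E-box (CACGTG, bound by Myc and related factors), an AP-1 site (TGACTCA), a Smad element (CAGACA), an Atf4 core (TGATGCA) and a hypoxia element (TACGTG). The E-box was in 23 of the 141 promoters (16.3%) and in 7.15% of all 32851 promoters, the AP-1 site in 2.8% and 5.2%, the Smad element in 13.5% and 21.04%, the Atf4 core in 4.3% and 3.15%, and the hypoxia element in 0 and 3.23%. A match is a run of letters and not a measured binding site, and a promoter without a match says nothing about the factor. Among the members that changed after 4 h of TGFb in all 3 genotypes (10 higher and 13 lower, with a promoter listed for 7 and 10), the E-box was in Slc16a1, Slc20a1 and Slc29a1, which rose, and in Slc35a5, which fell. The Smad element was in the same 3 that rose and in Slc5a3, which fell, the Atf4 core was in Slc1a4 and Slc6a9, which fell, and the AP-1 site and the hypoxia element were in 0 of them. The 250 bases before the start are shown for the 4 members that changed in every genotype and hold an E-box, the motif whose share in the members lay furthest above that in all promoters. Each is written 5′ to 3′ in the direction of the gene, with the E-box in capitals. Counted from the start, the first base of the site lay at -200 in Slc16a1 (chr3:104638414-104638663, plus strand), at -175 and -22 in 1 of the 2 promoters of Slc20a1 (chr2:129198523-129198772, plus strand), at -75 in 1 of the 8 promoters of Slc29a1 (chr17:45595247-45595496, minus strand), and at -90 and -67 in Slc35a5 (chr16:45158674-45158923, minus strand).
Slc16a1: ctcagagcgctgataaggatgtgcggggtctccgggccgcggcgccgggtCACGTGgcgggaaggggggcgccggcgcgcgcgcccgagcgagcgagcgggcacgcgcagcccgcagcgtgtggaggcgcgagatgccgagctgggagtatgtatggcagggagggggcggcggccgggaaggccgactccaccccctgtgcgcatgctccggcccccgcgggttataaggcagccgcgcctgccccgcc
Slc20a1: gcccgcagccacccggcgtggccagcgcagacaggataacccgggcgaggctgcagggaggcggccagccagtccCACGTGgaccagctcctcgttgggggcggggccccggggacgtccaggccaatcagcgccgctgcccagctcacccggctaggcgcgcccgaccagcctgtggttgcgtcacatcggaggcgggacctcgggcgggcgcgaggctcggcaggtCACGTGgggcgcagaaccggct
Slc29a1: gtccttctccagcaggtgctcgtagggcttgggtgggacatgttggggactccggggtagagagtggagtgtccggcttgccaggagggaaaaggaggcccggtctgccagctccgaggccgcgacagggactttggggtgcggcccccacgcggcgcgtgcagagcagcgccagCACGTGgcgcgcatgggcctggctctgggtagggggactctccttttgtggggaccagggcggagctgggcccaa
Slc35a5: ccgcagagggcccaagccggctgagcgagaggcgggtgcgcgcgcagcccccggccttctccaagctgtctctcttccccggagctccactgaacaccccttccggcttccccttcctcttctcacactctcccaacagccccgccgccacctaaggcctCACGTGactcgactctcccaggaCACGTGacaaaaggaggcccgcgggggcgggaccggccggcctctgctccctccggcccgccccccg

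Most fibroblast markers were high in the arrays. All 11 measured fibroblast markers of 12 listed lay at log2 5 or more in all 18 arrays. Col1a1 lay between log2 14.64 and 15.63 and Vim between 15.71 and 15.91, while Lum, the dimmest, read 5.82 to 8.04. None of 6 measured erythroid markers reached log2 5 in 2 arrays, and the endothelial markers Pecam1, Cdh5, Kdr and Tek read 1.93 to 2.59. Markers from other lists were nonetheless present: 2 of 8 endothelial markers (Emcn at 8.24 to 9.67 and Egfl7 at 5.95 to 7.49), 5 of 12 skeletal muscle markers (Acta1 at 9.36 to 12.66, with Myod1 at 2.01 to 2.08), 5 of 9 neural and glial markers (Stmn2 at 7.88 to 10.23, and Fabp7 at 9.3 or more) and 4 of 8 epithelial markers (Krt18 at 8.92 to 11.76) reached log2 5 in at least 2 arrays. All 14 macrophage markers reached log2 5 in at least 2 arrays, and Lyz2 read 8.01 to 12.66 over all arrays. Not every marker was present in every group: in the wt 24 h arrays Cd68 read 4.35 and 3.56 and Mrc1 3.41 and 3.48. The summed level of the 14 on the log2 scale was 10.31 to 12.98 in the 6 wt arrays against 13.22 to 14.63 in the 12 mutant arrays. The 2 arrays of a wt group also differed more than those of a mutant group, with a root mean square SD over all 10078 genes tested of 0.321 to 0.387 in wt and 0.183 to 0.222 in the mutants. In such bulk samples fewer cells of a type and less RNA per cell cannot be told apart.

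By substrate, the largest classes of members were the mitochondrial carrier family SLC25 (28 of 44 symbols on the array) and metal and heme carriers (22 of 34). Next came amino acid and peptide carriers (21 of 57) and the carriers of nucleotide sugars and acetyl-CoA (19 of 27). Carriers of monocarboxylates, organic ions and osmolytes (9 of 71) and of inorganic ions (9 of 52) were the classes with the smallest share of their symbols present. The remaining members were 8 of 29 sugar and polyol carriers, 9 of 28 carriers of vitamins, nucleosides, choline and lipids, and 4 genes named after a carrier that are not carriers themselves. Levels of different probe sets are not comparable as amounts of RNA, so a class is described by its brightest signal only. Median log2 levels reached 14.94 for Slc25a4, the ADP/ATP exchanger of mitochondria, 14.02 for the phosphate importer Slc20a1, 13.48 for the glutamine and alanine importer Slc38a2, 13.04 for the zinc importer Slc39a6 and 12.23 for the glucose carrier Slc2a1.

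Most members varied little between groups. The range of the 9 group means was 0.59 in the median member, under 0.5 in 50 members, and 1 or more in 26. It was smallest at 0.08 and largest, at 3.09, in Slc15a3. Some members passed the level threshold only in certain groups: Slc15a3 reached 7 in 12 arrays and Slc4a4 in 4, all of them mutant, and Slc16a13, a monocarboxylate carrier family member, reached it in 6 arrays, all of them 4 h. Slc25a25 and Slc7a7 reached it in 5 arrays each and Slc16a3, Slc25a26 and Slc46a1 in 8 each, all of them with TGFb, and Slc43a3 in 12, none of them at 24 h. A gene of this kind had to differ between groups to be a member. Just inside the threshold, the second highest array read 7.24 for Slc16a13, 7.21 for the ATP-magnesium/phosphate carrier Slc25a25 and 7.07 for the S-adenosylmethionine carrier Slc25a26, and just outside it 6.93 for Slc25a38, 6.89 for Slc5a2 and 6.73 for Slc36a1.

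**Figure D1:**
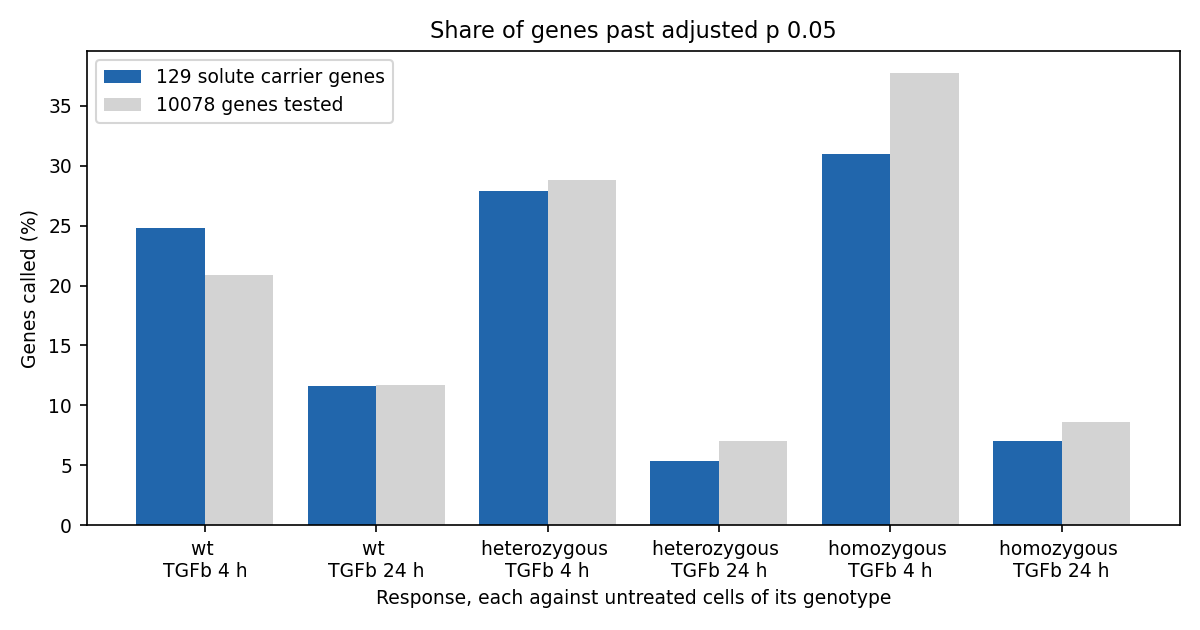
Bars give the percentage of genes past an adjusted p of 0.05 (y axis) in each of the 6 TGFb responses (x axis), blue for the 129 solute carrier genes and grey for all 10078 genes tested. The member bars run from 5.4% to 31% and the grey bars from 7.06% to 37.7%, with every 4 h pair above every 24 h pair.

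At 4 h of TGFb, between 24.8% and 31% of the members differed from untreated cells of their genotype, and carriers of phosphate, glucose and lactate were among those that rose while importers of small neutral amino acids were among those that fell. A gene is called here, and is said to have risen or fallen, at a limma p-value under 0.05 after Benjamini-Hochberg adjustment over all 10078 genes. In wt cells 32 of 129 members (24.8%) were called against 20.9% of all genes tested. Of these, 15 rose (9.49% of all genes rose) and 17 fell (11.4% of all genes). In heterozygous cells 36 (27.9%) were called against 28.8% of all genes, 21 higher and 15 lower against 15.7% and 13.2%. In homozygous cells 40 (31%) were called against 37.7%, 21 higher and 19 lower against 20.1% and 17.5%. The members' shares lay near the background, and the median log2 difference of the members was -0.05, 0.01 and 0.01 in wt, heterozygous and homozygous cells beside -0.03, 0.02 and 0.03 over all genes. Of the 109 members at log2 7 or more in all arrays, 25, 30 and 33 were called.

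In each mutant genotype arrays with the same replicate number deviated together. In wt cells the deviations of same-numbered arrays correlated at -0.49 (untreated and 4 h), -0.66 (untreated and 24 h) and 0.57 (4 h and 24 h). Untreated wt replicate 1 thus went with replicate 2 of both wt TGFb groups, and no alternative fit blocked wt arrays in that way. A fit with the replicate number as a block within each mutant genotype, chosen after the data were seen, is called the mutant replicate block here. It called 30, 34 and 39 members at 4 h, and its adjusted p is given beside each named call that it changed. The wt counts rest on the pooled spread of all groups. When only the groups compared were fitted, 1 member was called in wt cells at 4 h, and with array weights 3. The wt count was 14 without replicate 1 of the untreated wt arrays and 18 without replicate 2 of the 4 h wt arrays, and the heterozygous count was 21 without either untreated heterozygous array. The homozygous count rose instead, from 40 to 68 with array weights and 64 with only the groups compared.

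The 3 genotypes share no arrays, and 10 members rose and 13 fell at 4 h in all 3 of them. The same held for 7.66% and 7.71% of all genes. The 10 were the phosphate carrier Slc20a1, the glucose carrier Slc2a1, the lactate and monocarboxylate carriers Slc16a1 and Slc16a3, the mitochondrial folate and FAD carrier Slc25a32, the nucleoside carrier Slc29a1, the metal carriers Slc39a14 and Slc41a2, and Slc35e4 and Slc66a2, whose substrates are not settled. Of these, Slc16a3 was a member only through its TGFb arrays. The 13 were the amino acid carriers Slc1a4, Slc38a1, Slc38a2 and Slc6a9, the myo-inositol carrier Slc5a3, the mitochondrial carriers Slc25a44 and Slc25a51, the lysosomal nucleoside carrier Slc29a3, the choline carrier Slc44a1, the zinc carrier Slc39a10, the nucleotide sugar family members Slc35a5 and Slc35b4, and Slc10a7. Another 9 members were called in 2 genotypes and 21 in 1, no member was called in opposite directions, and 76 were called in none. With the mutant replicate block 9 of the 10 and 12 of the 13 kept all 3 calls, the others being Slc16a1 and Slc35b4. With only the groups compared, 1 of the 10 and 0 of the 13 kept them, and with array weights 3 and 0. In both mutants, 9 or 10 of the 10 kept their calls under every alternative and every left-out array, and of the 13 the number ran from 8 with a gene's probe sets averaged, through 9 without a filter and 10 with only the groups compared, to 13 with array weights, and from 6 to 13 with 1 array left out. It was 6 without untreated heterozygous replicate 1 or replicate 1 of the heterozygous 4 h arrays, and 8 without replicate 2 of the untreated heterozygous arrays, untreated homozygous replicate 1 or replicate 2 of the homozygous 4 h arrays. All 3 calls held for 7 of the 13 without a filter, with a gene's probe sets averaged, without replicate 2 of the wt 4 h arrays or without replicate 2 of the untreated heterozygous arrays. They held for 4 without untreated wt replicate 1, 5 without untreated heterozygous replicate 1, 6 without replicate 1 of the heterozygous 4 h arrays, and 8 without either untreated homozygous array or replicate 2 of the homozygous 4 h arrays.

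**Figure D2:**
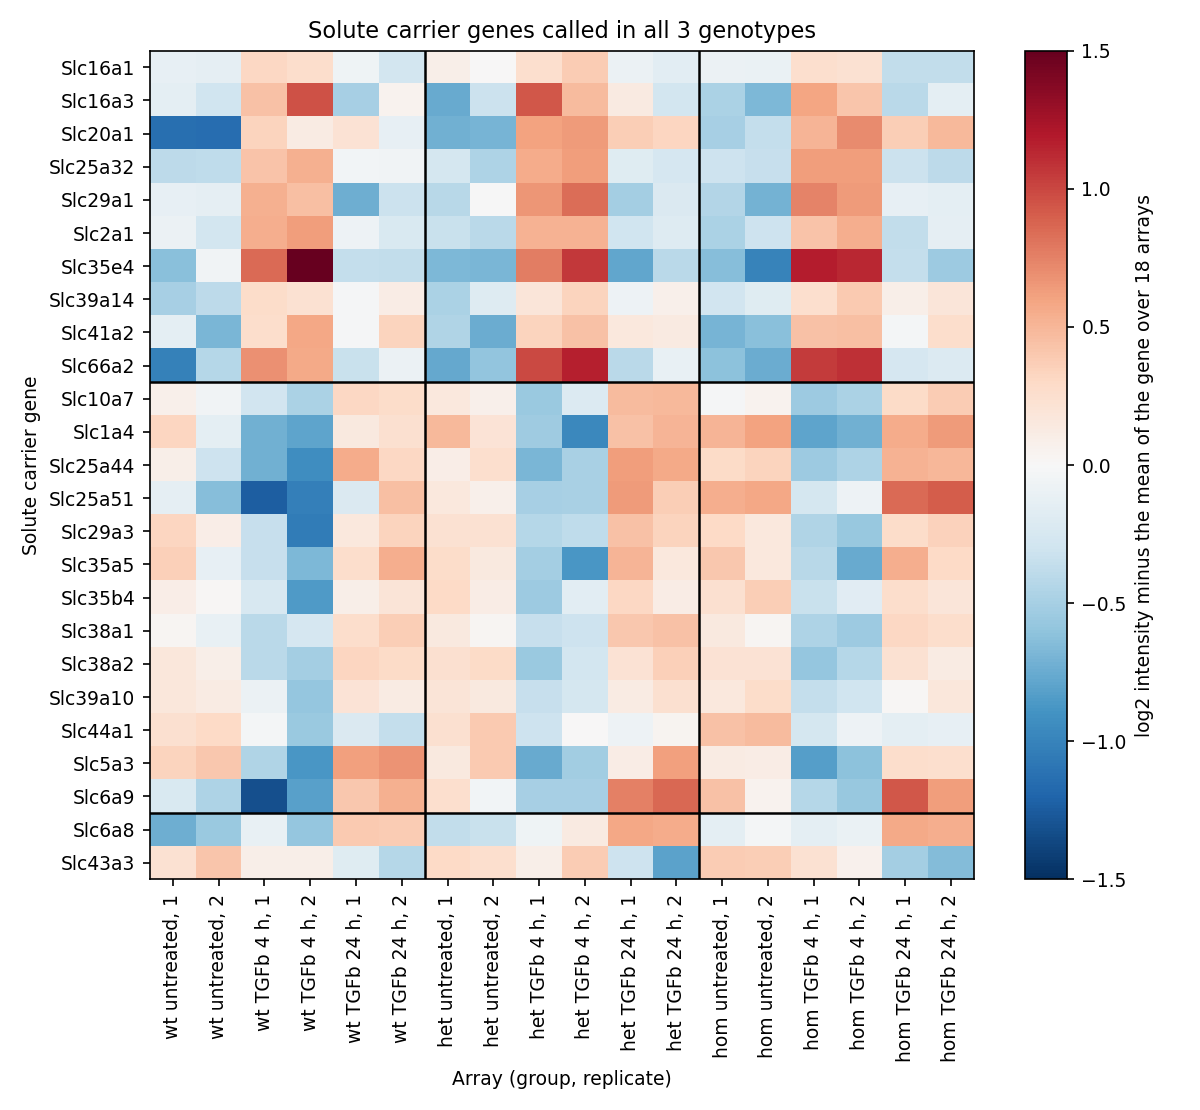
Each row is a member called at 4 h in all 3 genotypes (10 higher, then 13 lower), followed by Slc6a8 and Slc43a3 from the 24 h comparison, and each column is an array. Colour gives the log2 level minus the gene's mean over 18 arrays, from -1.5 to 1.5, and the 4 h columns of every genotype stand apart from the untreated and 24 h columns for most of the first 23 genes.

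Among inorganic ion carriers, 1 of 9 rose at 4 h in each genotype and 0 fell. The gene was Slc20a1, the sodium-phosphate cotransporter also known as PiT-1. Its log2 level was 12.62 and 12.61 in untreated wt cells, 14.08 and 13.88 at 4 h and 13.97 and 13.63 at 24 h. In heterozygous cells it was 13.03 and 13.05, then 14.35 and 14.39, then 14.12 and 14.07, and in homozygous cells 13.25 and 13.4, then 14.26 and 14.46, then 14.12 and 14.24. In every genotype both TGFb groups lay wholly above the untreated arrays, and the untreated wt arrays were the lowest of all 18. The rise at 4 h was 2.57-fold in wt, 2.52-fold in heterozygous and 2.05-fold in homozygous cells (log2 differences of 1.36, 1.33 and 1.03, each with an SE of 0.11, limma with Benjamini-Hochberg adjusted p 7.56e-06, 5.7e-06 and 2.95e-05). The other probe sets of the gene rose by 0.94 to 2.25 on the log2 scale. The calls of Slc20a1 at 4 h and at 24 h held under all 12 alternative settings and without any 1 of the 18 arrays. The chloride cotransporter Slc12a2 was not called at 4 h, with log2 differences of -0.44, -0.46 and -0.54 and an SE of 0.25.

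Among sugar and polyol carriers, 1 of 8 rose in each genotype and 2, 1 and 2 fell in wt, heterozygous and homozygous cells. Slc2a1, the GLUT1 glucose carrier, read 12.3 and 12.12 in untreated wt cells, 12.94 and 13.02 at 4 h and 12.32 and 12.17 at 24 h. The corresponding pairs were 12.06 and 11.99, 12.91 and 12.91, and 12.1 and 12.2 in heterozygous cells, and 11.92 and 12.08, 12.82 and 12.94, and 12.02 and 12.26 in homozygous cells. All 6 arrays at 4 h were higher than all 12 others. The rise was 1.7-, 1.85- and 1.84-fold (log2 0.77, 0.89 and 0.88, SE 0.10, limma adjusted p 0.00027, 5.64e-05 and 4.77e-05). At 24 h the log2 differences from untreated were 0.03, 0.13 and 0.14, not called.

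Slc5a3, the sodium-coupled importer of the osmolyte myo-inositol, moved the other way. It read 11.32 and 11.38 untreated, 10.53 and 10.11 at 4 h and 11.6 and 11.66 at 24 h in wt cells. In heterozygous cells it read 11.13 and 11.37, 10.23 and 10.46, and 11.09 and 11.59, and in homozygous cells 11.1 and 11.09, 10.16 and 10.36, and 11.24 and 11.23. The 4 h arrays were again apart from all others, here on the low side. It was 2.04-, 1.87- and 1.78-fold lower at 4 h (log2 -1.03, -0.90 and -0.83, SE 0.17, limma adjusted p 0.00118, 0.00174 and 0.00206), and its second probe set fell by 1.69, 2.35 and 2.23. Slc37a3 fell by 0.53 in wt cells (adjusted p 0.0186) and Slc45a4 by 0.66 in homozygous cells (adjusted p 0.00656), each in that genotype alone. For these 2 genes no difference of a mutant response from the wt response passed the test, and the mutant responses were not tested against each other.

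**Figure D3:**
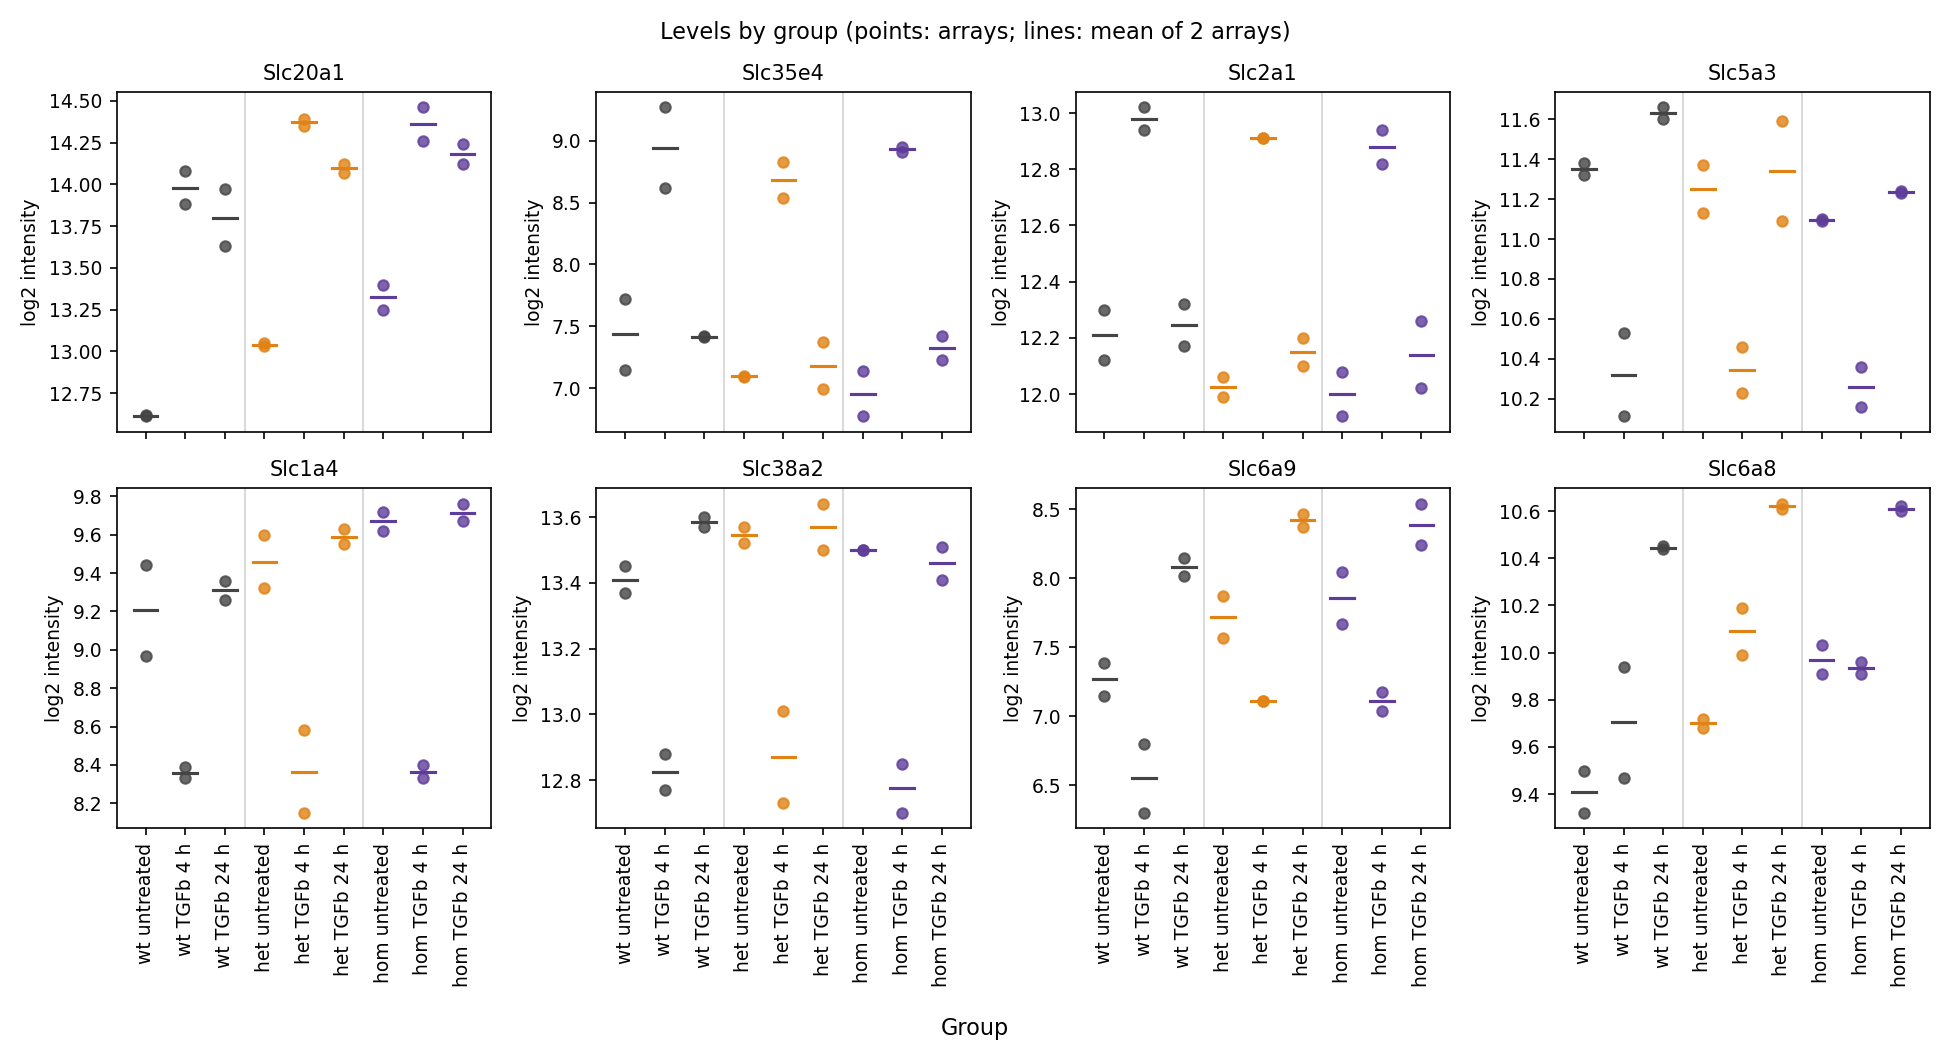
Log2 level (y axis) in each of the 9 groups (x axis) for 8 members, with a point for each array and a line at the mean of the 2 arrays. Slc20a1 stays above its untreated level at 24 h, Slc35e4, Slc2a1, Slc5a3, Slc1a4 and Slc38a2 are near their untreated level at 24 h, Slc6a9 is low at 4 h and high at 24 h, and Slc6a8 is highest at 24 h.

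Of 21 amino acid and peptide carriers, 4 fell and 1 rose at 4 h in wt, 4 and 2 in heterozygous, and 6 and 2 in homozygous cells. Of all genes tested, 11.4%, 13.2% and 17.5% fell and 9.49%, 15.7% and 20.1% rose, and counts this small, in this class or another, are a description only. The 4 that fell in every genotype import small neutral amino acids. Slc1a4 carries alanine, serine and cysteine, Slc38a1 and Slc38a2 carry glutamine and alanine with sodium, and Slc6a9 carries glycine. The other probe set of Slc6a9, at a mean log2 level of 5.27, differed by only -0.23, -0.09 and -0.01. Both mutant calls of Slc6a9 were lost with a gene's probe sets averaged. Slc1a4 read 9.44 and 8.97 untreated and 8.39 and 8.33 at 4 h in wt cells, 9.6 and 9.32 against 8.58 and 8.15 in heterozygous cells, and 9.62 and 9.72 against 8.33 and 8.4 in homozygous cells. The groups did not overlap in any genotype, and the 6 arrays at 24 h, between 9.26 and 9.76, were back within or above the range of the untreated ones. At 4 h Slc1a4 was 1.8-, 2.14- and 2.47-fold lower (log2 -0.85, -1.10 and -1.31, SE 0.16, limma adjusted p 0.00382, 0.000491 and 0.000117), and its other probe sets fell by 1.03 to 1.75.

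Slc38a2 read 13.45 and 13.37 in untreated wt cells and 12.88 and 12.77 at 4 h, 13.52 and 13.57 against 12.73 and 13.01 in heterozygous cells, and 13.5 and 13.5 against 12.7 and 12.85 in homozygous cells. Every 4 h array was lower than every untreated or 24 h array. The log2 differences were -0.58, -0.68 and -0.73 (SE 0.09, limma adjusted p 0.000907, 0.000209 and 0.000101). Slc38a1 fell by 0.28, 0.41 and 0.60 on the log2 scale (SE 0.09, adjusted p 0.0347, 0.00342 and 0.000241). Its wt call was lost in 5 of the 12 alternative settings. For Slc1a4, Slc38a2 and Slc5a3 the mutant calls at 4 h held under every alternative and every left-out array, while the wt calls were lost with array weights and with only the groups compared. Slc7a5, the large neutral amino acid exchanger LAT1, fell by 0.61 in homozygous cells (SE 0.17, adjusted p 0.0145), where Slc1a5, a glutamine exchanger, fell by 0.30 (SE 0.11, adjusted p 0.0498, and 0.0603 with the mutant replicate block). Slc3a2, the heavy chain that pairs with Slc7a5, had log2 differences of -0.05, 0.10 and 0.09 (SE 0.09), and the arginine and lysine carrier Slc7a1 had 0.17, 0.17 and 0.23 (SE 0.09); neither was called.

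The amino acid class also held a gene that rose in every genotype, Slc66a2, a PQ-loop membrane protein placed there for its family and not for a known substrate. It read 9.26 and 9.84 untreated and 10.95 and 10.84 at 4 h in wt cells, 9.5 and 9.68 against 11.26 and 11.44 in heterozygous cells, and 9.65 and 9.52 against 11.32 and 11.37 in homozygous cells. The 24 h arrays, from 9.87 to 10.18, lay between. The rise at 4 h was 2.53-, 3.4- and 3.39-fold (log2 1.34, 1.77 and 1.76, SE 0.17, limma adjusted p 0.000235, 1.86e-05 and 1.48e-05). The peptide and histidine carrier Slc15a4 rose in heterozygous cells alone, by 0.76 (SE 0.19, adjusted p 0.00912). The difference of this response from the wt response did not pass the test, and the mutant responses were not tested against each other.

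Of 22 metal and heme carriers, 3 rose and 2 fell in wt, 4 and 1 in heterozygous, and 4 and 3 in homozygous cells at 4 h. Slc41a2, a magnesium carrier, read 8.62 and 8.08 untreated and 9.02 and 9.34 at 4 h in wt cells, 8.31 and 8.02 against 9.09 and 9.2 in heterozygous cells, and 8.06 and 8.14 against 9.2 and 9.21 in homozygous cells. The groups were apart in each genotype. Its log2 rises were 0.83, 0.98 and 1.10 (SE 0.19, limma adjusted p 0.00882, 0.00233 and 0.00079). Slc39a14, which imports zinc, iron and manganese, read 8.35 and 8.45 against 9.12 and 9.07 in wt cells, 8.37 and 8.65 against 9.03 and 9.18 in heterozygous cells, and 8.55 and 8.66 against 9.1 and 9.23 in homozygous cells. Its rises were 0.69, 0.59 and 0.56 (SE 0.12, adjusted p 0.00195, 0.0032 and 0.00333), but its 2 dimmer probe sets differed by -0.16 and -0.06 in heterozygous and -0.44 and -0.11 in homozygous cells, so the probe sets of this gene disagree in the mutants. The zinc importer Slc39a10 fell by 0.48, 0.48 and 0.55 (SE 0.13, adjusted p 0.0204, 0.0151 and 0.00585). The zinc importer Slc39a13, known for its part in connective tissue, rose in wt cells by 0.69 (SE 0.21, adjusted p 0.0363). The zinc exporter Slc30a1, the iron importer Slc11a2 and the copper importer Slc31a1 were not called at 4 h, with log2 differences between -0.30 and 0.45.

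The 28 members of the mitochondrial carrier family SLC25 were grouped by family and not by place in the cell. Of these, 2 rose and 2 fell in wt, 5 and 3 in heterozygous, and 6 and 3 in homozygous cells at 4 h. Slc25a32 read 9.1 and 9.11 untreated and 9.92 and 10.02 at 4 h in wt cells, 9.22 and 9.02 against 10.05 and 10.12 in heterozygous cells, and 9.18 and 9.14 against 10.11 and 10.11 in homozygous cells. No 4 h array overlapped an untreated one. The log2 rises were 0.87, 0.97 and 0.95 (SE 0.09, limma adjusted p 7.82e-05, 1.98e-05 and 1.8e-05). Slc25a44, a carrier of branched-chain amino acids, fell by 0.71, 0.76 and 0.81 (SE 0.15, adjusted p 0.00634, 0.00288 and 0.0014), and Slc25a51, the mitochondrial NAD carrier, by 0.74, 0.60 and 0.74 (SE 0.19, adjusted p 0.0188, 0.0337 and 0.0103). The other probe set of Slc25a44, at a mean log2 level of 7.44, differed by only -0.01, -0.09 and -0.30. For Slc25a51 the other probe sets of the gene differed by -0.06 to 0.15 in heterozygous and -0.04 to 0.20 in homozygous cells, so its fall there rests on 1 probe set. The ADP/ATP exchanger Slc25a5 rose by 0.23 in heterozygous and 0.27 in homozygous cells (SE 0.06, adjusted p 0.0097 and 0.0029), and its paralog Slc25a4 was not called. The mitochondrial iron importer Slc25a37 rose in heterozygous cells (0.62, SE 0.14, adjusted p 0.00572), the pyrimidine nucleotide carrier Slc25a33 in wt and homozygous cells (0.47 and 0.42, adjusted p 0.0386 and 0.0375), and Slc25a25, a member only through 5 arrays with TGFb, in homozygous cells (0.71, adjusted p 0.0173).

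Of the 19 carriers of nucleotide sugars and acetyl-CoA, 3 rose and 3 fell in wt, 4 and 3 in heterozygous, and 4 and 2 in homozygous cells at 4 h. The largest rise on the log2 scale among all members at 4 h, in wt and homozygous cells, was that of Slc35e4. It read 7.15 and 7.72 untreated, 8.62 and 9.27 at 4 h and 7.42 and 7.41 at 24 h in wt cells. In heterozygous cells it read 7.1 and 7.09, 8.54 and 8.83, and 6.99 and 7.37, and in homozygous cells 7.14 and 6.77, 8.95 and 8.91, and 7.42 and 7.23. The 6 arrays at 4 h stood above all 12 others. The rise was 2.85-, 3.01- and 3.93-fold (log2 1.51, 1.59 and 1.98, SE 0.23, limma adjusted p 0.000889, 0.000417 and 6.82e-05), and a second probe set, marked as one that can cross-hybridize, rose by 1.25, 1.65 and 1.52. Slc35a5 read 10.4 and 9.92 untreated and 9.7 and 9.37 at 4 h in wt cells, 10.32 and 10.19 against 9.53 and 9.17 in heterozygous cells, and 10.45 and 10.2 against 9.62 and 9.29 in homozygous cells. It fell by 0.62, 0.91 and 0.87 (SE 0.20, adjusted p 0.0447, 0.00553 and 0.00534), the wt call being lost in 6 of the 12 alternative settings and in 10 of the 18 fits that left out 1 array. Slc35b4, a carrier of UDP-xylose and UDP-N-acetylglucosamine, fell by 0.60, 0.56 and 0.56 (SE 0.18, adjusted p 0.0339, 0.0356 and 0.0272), with the wt and heterozygous calls lost under the mutant replicate block (adjusted p 0.0551 and 0.0555). Without a filter the call of Slc35b4 was lost in every genotype, and with a gene's probe sets averaged it was lost in both mutants. The UDP-galactose carrier Slc35a2 rose in wt cells (0.62, SE 0.20, adjusted p 0.0478, and 0.0731 with the mutant replicate block) and the sulfate donor carrier Slc35b2 in homozygous cells (0.72, SE 0.17, adjusted p 0.00526).

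Of the 9 carriers of monocarboxylates, organic ions and osmolytes, 3 rose in wt and heterozygous cells and 2 in homozygous cells at 4 h, and 2, 1 and 1 fell. Slc16a3, the lactate exporter MCT4, read 6.96 and 6.81 untreated and 7.55 and 8.07 at 4 h in wt cells, 6.35 and 6.79 against 8.04 and 7.59 in heterozygous cells, and 6.64 and 6.44 against 7.7 and 7.53 in homozygous cells. It was dim in the untreated arrays, and the groups did not overlap, but it was a member only through 8 arrays with TGFb, so that its rise was partly fixed by the choice of members. The rise was 1.89-, 2.37- and 2.1-fold (log2 0.92, 1.25 and 1.07, SE 0.25, limma adjusted p 0.021, 0.0029 and 0.00507). Slc16a1, the monocarboxylate carrier MCT1, rose less, by 0.42, 0.27 and 0.33 (SE 0.09, adjusted p 0.00512, 0.0335 and 0.00911, the heterozygous one 0.0554 with the mutant replicate block), from 10.77 and 10.75 to 11.2 and 11.15 in wt cells. Slc10a7, of the bile acid carrier family, fell by 0.39, 0.50 and 0.53 (SE 0.12, adjusted p 0.0332, 0.00698 and 0.00392). The vesicular polyamine carrier Slc18b1 fell in wt cells by 0.85 (SE 0.17, adjusted p 0.00505), and the rise of Slc16a13 there (0.79, adjusted p 0.0681 with the mutant replicate block) is of a gene that was a member only through its 4 h arrays. The taurine importer Slc6a6 was not called in any of the 6 responses.

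Of the 9 carriers of vitamins, nucleosides, choline and lipids, 1 rose and 2 fell at 4 h in each genotype. Slc29a1, the equilibrative nucleoside carrier ENT1, read 7.58 and 7.57 untreated and 8.24 and 8.16 at 4 h in wt cells, 7.29 and 7.7 against 8.37 and 8.54 in heterozygous cells, and 7.26 and 7.0 against 8.45 and 8.34 in homozygous cells. Its log2 rises were 0.62, 0.96 and 1.26 (SE 0.17, limma adjusted p 0.024, 0.00161 and 0.000196). Its lysosomal paralog Slc29a3 moved the other way, from 8.32 and 8.1 to 7.65 and 6.95 in wt cells, from 8.22 and 8.22 to 7.57 and 7.62 in heterozygous cells, and from 8.29 and 8.15 to 7.55 and 7.43 in homozygous cells. The falls were 0.91, 0.63 and 0.73 (SE 0.18, adjusted p 0.00465, 0.0212 and 0.00765). The choline carrier Slc44a1 fell by 0.56, 0.47 and 0.62 (SE 0.16, adjusted p 0.0284, 0.0456 and 0.00964). Its heterozygous call was lost in 3 of the 12 alternative settings and in 13 of the 18 fits that left out 1 array. Of the 4 genes named after a carrier, limma called 0 in any response, with 2 at an unadjusted p under 0.05 in wt and 1 in heterozygous cells at 4 h and 1 in wt cells at 24 h.

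**Figure D4:**
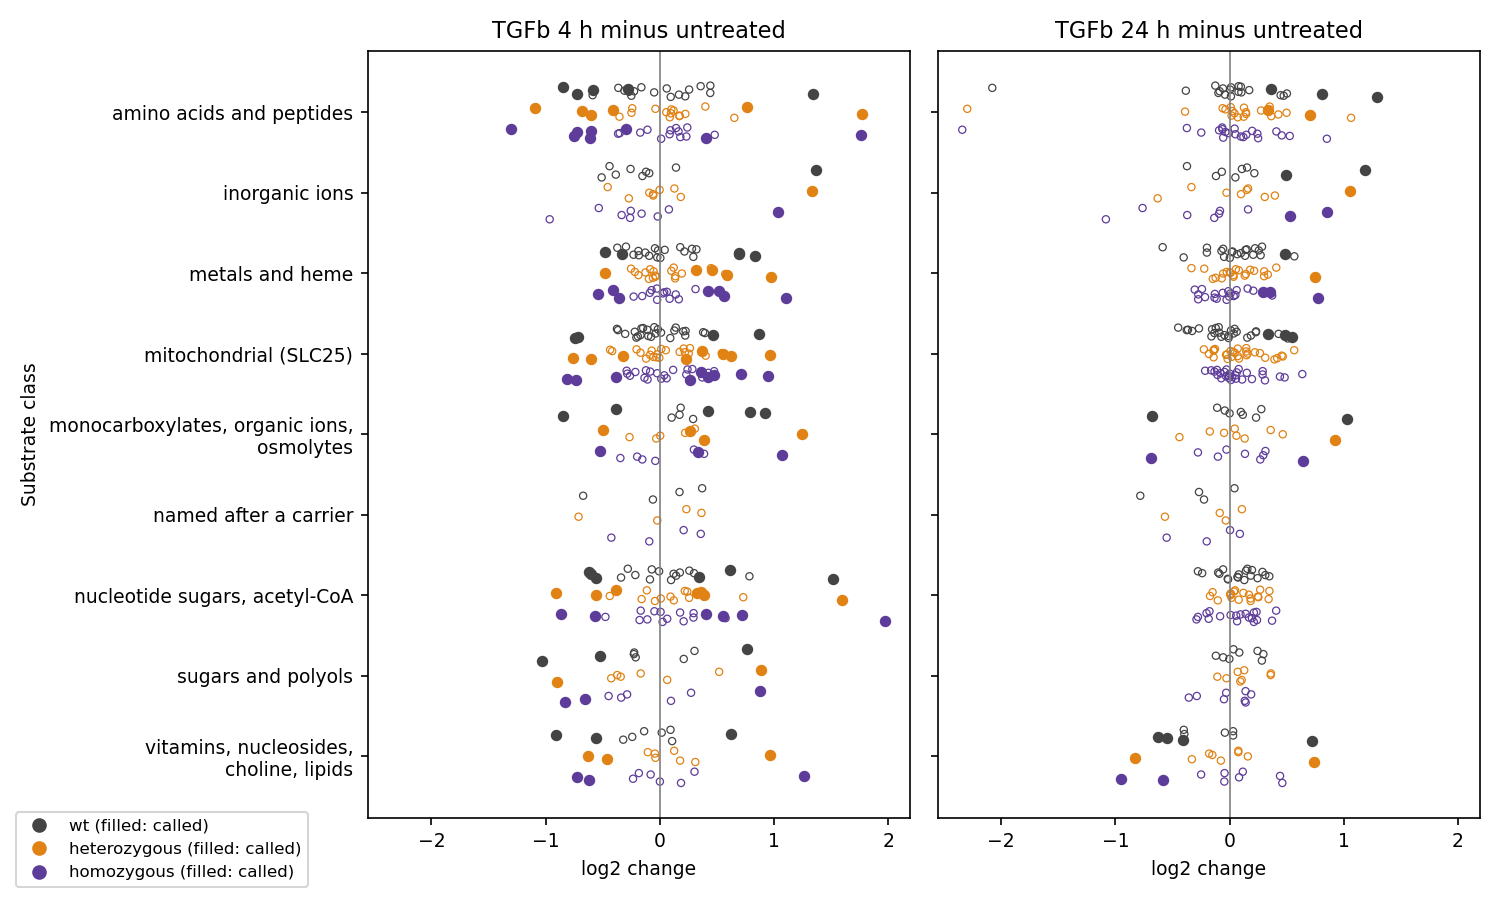
Each point is a member, placed by substrate class (y axis) and by its log2 difference from untreated cells at 4 h or 24 h in each genotype (x axis). Colour gives the genotype, and filled points are called members while open points are not called. The largest called rises at 4 h are 1.51 in wt, 1.77 in heterozygous and 1.98 in homozygous cells, and the largest falls -1.03, -1.10 and -1.31.

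At 24 h fewer members were called. In wt cells 15 of 129 (11.6%) were called against 11.7% of all genes, 11 higher and 4 lower against 4.51% and 7.14%. In heterozygous cells 7 (5.4%) were called against 7.06%, 6 higher and 1 lower against 2.95% and 4.12%. In homozygous cells 9 (7.0%) were called against 8.6%, 6 higher and 3 lower against 3.1% and 5.51%. The median log2 difference of the members was 0.03, 0.08 and 0.01 beside -0.06, 0.01 and -0.02 over all genes. These responses share their untreated arrays with those at 4 h. Of members at log2 7 or more in all arrays, 10, 4 and 8 were called. The 24 h counts were unstable. In wt cells 2 members were called with array weights and 1 with only the groups compared, in heterozygous cells 22 and 4, and in homozygous cells 34 and 23, with 15 after quantile normalization and 17 with equal array medians. The wt count was 7 without untreated wt replicate 2, 9 without replicate 1 and 4 without replicate 2 of the wt 24 h arrays, and 8 without either untreated homozygous array. The heterozygous count was 2 without either untreated heterozygous array, 4 without replicate 1 and 3 without replicate 2 of its 24 h arrays. The homozygous count was 14 without either wt 4 h array, 2 when untreated homozygous replicate 1 and 3 when its replicate 2 was left out, and 4 without replicate 1 and 2 without replicate 2 of the homozygous 24 h arrays.

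In all 3 genotypes Slc20a1 and the creatine importer Slc6a8 rose and Slc43a3, a carrier of purine bases, fell at 24 h. Over all genes 1.9% rose and 2.98% fell in all 3. Slc20a1 was 2.27-, 2.08- and 1.81-fold higher (log2 1.18, 1.06 and 0.85, SE 0.11, limma adjusted p 2.53e-05, 6.72e-05 and 0.000304). Slc6a8 read 9.32 and 9.5 untreated, 9.94 and 9.47 at 4 h and 10.45 and 10.44 at 24 h in wt cells. In heterozygous cells it read 9.68 and 9.72, 9.99 and 10.19, and 10.63 and 10.61, and in homozygous cells 9.91 and 10.03, 9.91 and 9.96, and 10.62 and 10.6. The 6 arrays at 24 h, from 10.44 to 10.63, were the highest of the 18. The rise was 2.04-, 1.89- and 1.56-fold (log2 1.03, 0.92 and 0.64, SE 0.13, adjusted p 0.00031, 0.000959 and 0.00851). Slc43a3 read 7.21 and 7.39 untreated and 6.8 and 6.55 at 24 h in wt cells, 7.27 and 7.23 against 6.67 and 6.17 in heterozygous cells, and 7.36 and 7.35 against 6.47 and 6.33 in homozygous cells. It fell by 0.62, 0.83 and 0.95 (SE 0.17, adjusted p 0.0362, 0.0112 and 0.00392), the wt call being lost with the mutant replicate block (adjusted p 0.053). Its 12 arrays at log2 7 or more were all untreated or 4 h, so that a low level at 24 h was partly fixed by the choice of members. The homozygous call of Slc6a8 was lost without untreated homozygous replicate 1 or either homozygous 24 h array. At least 1 of the 3 calls of Slc43a3 was lost without untreated wt replicate 2, any untreated heterozygous or homozygous array, either wt 24 h array or replicate 2 of the heterozygous 24 h arrays.

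Other members called at 24 h fell into a few roles. Among amino acid carriers 3 rose in wt and 2 in heterozygous cells, and limma called 0 of 21 in homozygous cells, with 6 at an unadjusted p under 0.05. Slc6a9, low at 4 h, read 8.02 and 8.15 at 24 h against 7.39 and 7.15 untreated in wt cells, 8.37 and 8.47 against 7.87 and 7.57 in heterozygous cells, and 8.54 and 8.24 against 8.05 and 7.67 in homozygous cells. The difference at 24 h was 0.81, 0.70 and 0.53 (SE 0.19, adjusted p 0.0152, 0.0411 and 0.117), the last not called, and that at 4 h, against the same untreated arrays, was -0.72, -0.61 and -0.76 (adjusted p 0.0193, 0.0304 and 0.00831). Slc38a1 was likewise lower at 4 h and higher at 24 h, by 0.36 in wt and 0.33 in heterozygous cells (adjusted p 0.0154 and 0.031). Slc7a7, the light chain of a cationic amino acid exchanger, rose in wt cells by 1.29 (SE 0.35, adjusted p 0.0311), from 5.74 and 5.31 to 6.43 and 7.2, and was a member only through 5 arrays, all with TGFb.

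Of the ion and metal carriers, the sulfate carrier Slc26a2 rose at 24 h by 0.49 in wt and 0.53 in homozygous cells (SE 0.14, adjusted p 0.0395 and 0.0332), and Slc41a2 by 0.74 in heterozygous and 0.78 in homozygous cells (SE 0.19, adjusted p 0.0281 and 0.0199). Slc39a14 rose in wt cells (0.48, adjusted p 0.0204), and the copper importer Slc31a1 and the zinc carrier Slc30a9 rose in homozygous cells (0.36 and 0.30, adjusted p 0.0332 and 0.0425). With the mutant replicate block Slc30a9 had an adjusted p of 0.0652, and Slc39a14 was also called in homozygous cells (adjusted p 0.0436). The proton-coupled folate importer Slc46a1, dim at 6.49 to 7.53 over all arrays and a member only through 8 arrays with TGFb, rose by 0.72 in wt and 0.74 in heterozygous cells (SE 0.17, adjusted p 0.0138 and 0.0153). The choline carrier Slc44a1 fell by 0.55 in wt and 0.59 in homozygous cells (adjusted p 0.0452 and 0.0392) and Slc18b1 by 0.68 and 0.69 (adjusted p 0.023 and 0.0253). Of the 19 carriers of nucleotide sugars limma called 0 at 24 h, with 1, 0 and 2 at an unadjusted p under 0.05 in wt, heterozygous and homozygous cells, and of the 8 carriers of sugars and polyols 0, with 0, 0 and 1.

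Set directly against each other, 24 h and 4 h differed in 43 members in wt (33.3%, with 34.3% of all genes), 35 in heterozygous (27.1%, with 32.2%) and 39 in homozygous cells (30.2%, with 36.9%). At 24 h 27, 19 and 21 members were higher than at 4 h (15.1%, 14.9% and 14.9% of all genes) and 16, 16 and 18 were lower (19.2%, 17.3% and 22% of all genes). These comparisons use the same 4 h and 24 h arrays as the responses and are no separate evidence of them. The largest called difference upward was 1.54 for Slc6a9 in wt cells and 1.31 in heterozygous cells, and 1.35 for Slc1a4 in homozygous cells. Downward, Slc35e4 differed by -1.53, -1.51 and -1.60 (SE 0.23). Slc1a6, a glutamate carrier, was lower at 24 h by 2.26 in heterozygous and 2.23 in homozygous cells (SE 0.72, adjusted p 0.0309 and 0.0293), but its replicates were far apart: in wt cells it read 9.45 and 8.21 untreated, 7.69 and 9.24 at 4 h and 5.76 and 7.74 at 24 h. Against untreated cells its 24 h differences of -2.08, -2.30 and -2.34 were not called (adjusted p 0.0854, 0.0842 and 0.0673). In wt cells 0 members were called with only the groups compared and 21 with array weights, and the count was 25 without replicate 2 of the wt 4 h arrays and 24 without replicate 2 of the wt 24 h arrays. The homozygous count was 24 without replicate 1 of the homozygous 4 h arrays.

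In untreated cells few members were called between the genotypes. Of the 129 members, 0 were called between heterozygous and wt cells by limma (0.923% of all genes), with 14 at an unadjusted p under 0.05, and 0 between homozygous and heterozygous cells (0% of all genes), with 5. Between homozygous and wt cells 3 members were called (2.3%, with 1.77% of all genes), all higher in homozygous cells (1.15% of all genes). For heterozygous and homozygous against wt cells, 980 and 1811 of 10078 genes and 14 and 22 of the members had an unadjusted p under 0.05. The amino acid and peptide carriers held 8 and 8 of 21, with 0 and 1 called. The metal and heme carriers held 0 and 2 of 22, and the classes were not tested against each other. The 3 called members were Slc7a3, a carrier of arginine and lysine, Slc25a51 and Slc20a1. Slc7a3 read 9.13 and 8.79 in untreated wt cells, 10.31 and 9.7 in heterozygous and 10.09 and 10.09 in homozygous cells. All mutant arrays of this gene, TGFb included, lay above all wt arrays. The difference was 1.14 between homozygous and wt cells (SE 0.26, limma adjusted p 0.0472) and 1.05 between heterozygous and wt cells (adjusted p 0.103, not called). Slc25a51 differed by 0.96 and 0.50 (SE 0.19, adjusted p 0.0341 and 0.412), but its other probe sets differed by -0.80 to 0.30 between homozygous and wt cells. Slc20a1 differed by 0.71 and 0.42 (SE 0.11, adjusted p 0.0112 and 0.109).

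None of the 3 calls held with array weights, with only the groups compared or without either untreated homozygous array, each of which left 0 members called. The count was 9 without untreated wt replicate 1 and 1 without replicate 2, 6 without replicate 1 and 7 without replicate 2 of the wt 4 h arrays, and 1 without any of the heterozygous 4 h or the homozygous 4 h or 24 h arrays, left out singly. For heterozygous against wt it was 4 without untreated wt replicate 1 and 1 without any of the 4 wt TGFb arrays, left out singly.

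The member with the widest range over the groups, Slc15a3, a lysosomal carrier of peptides and histidine, was described after its values were seen, as was Slc4a4. Slc15a3 read 5.64 and 4.99 untreated, 4.61 and 6.9 at 4 h and 4.75 and 5.63 at 24 h in wt cells. In heterozygous cells it read 8.28 and 7.49, 8.56 and 8.0, and 8.51 and 7.96, and in homozygous cells 7.42 and 7.51, 7.51 and 7.9, and 7.37 and 7.44. Every mutant array lay above every wt array, as the choice of members allowed, and the untreated differences of 2.57 (SE 0.56, limma adjusted p 0.0546) and 2.15 (adjusted p 0.0756) were not called. The 14 macrophage markers differed the same way, with a median log2 difference of 2.5 for heterozygous and 1.89 for homozygous against wt untreated cells and 5 and 2 of them called higher, and their part in the result was not tested. In the wt 4 h arrays, where Slc15a3 read 4.61 and 6.9, the summed macrophage level was between 10.95 and 12.98. The sodium bicarbonate carrier Slc4a4 differed by 1.76 between homozygous and wt cells (SE 0.57, adjusted p 0.131, not called). Slc7a5 and Slc6a8 were 0.72 and 0.56 higher in homozygous than in wt cells without passing the threshold (adjusted p 0.0565 and 0.0541).

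**Figure D5:**
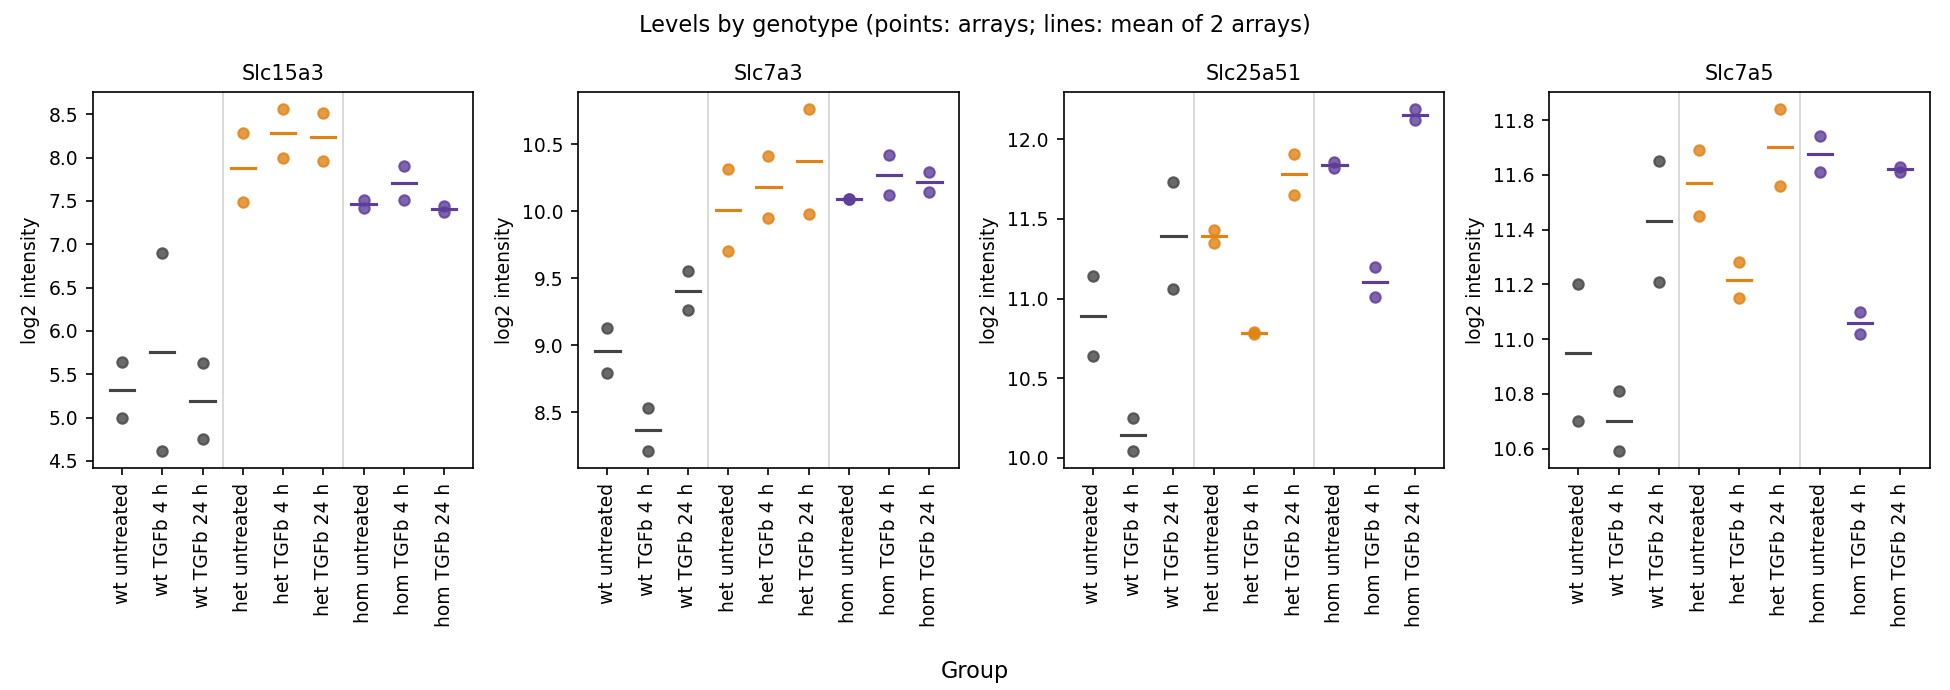
Log2 level (y axis) by group (x axis) for Slc15a3, Slc7a3, Slc25a51 and Slc7a5, with a point for each array and a line at the mean of 2 arrays. For Slc15a3 and Slc7a3 all wt points lie below all mutant points, while Slc25a51 and Slc7a5 overlap between genotypes across treatments.

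No difference between a mutant response and the wt response passed the test. On simulated data the fit recovered 20.9% of 1.5-fold and 56.7% of 2-fold differences between the homozygous and wt responses at 24 h. Differences of that size could therefore be missed. The simulated arrays were independent, with the same spread in every group. The real wt arrays spread more than the mutant ones, so these rates may be too high. At 4 h and at 24 h limma called 0 members and 0% of all genes for either mutant. At an unadjusted p under 0.05 the counts at 4 h were 3 members for heterozygous and 5 for homozygous cells (347 and 847 of all genes), and at 24 h 2 and 6 (311 and 577 of all genes). The smallest unadjusted p among the members was 0.00374, for Slc35b3, a carrier of the sulfate donor PAPS, whose response at 4 h was 0.43 higher in homozygous than in wt cells (SE 0.12, adjusted p 0.517). A call in 1 genotype and not in another, as for Slc15a4 or Slc18b1, is therefore not a shown difference between genotypes. Without replicate 1 of the wt 4 h arrays, 1 member was called for heterozygous and 3 for homozygous cells at 4 h.

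Lists of other transport genes were counted in the same fits. Of 29 measured pumps (of 39 listed: P-type and vacuolar ATPases), 1 rose and 1 fell at 4 h in wt, 4 and 0 in heterozygous and 4 and 2 in homozygous cells, and at 24 h 4 and 1, 2 and 1, and 3 and 2. Of 21 ABC transporters (of 32), 0 and 2, 1 and 2, and 3 and 5 were called at 4 h, and 1 rose and 0 fell at 24 h in each genotype. Of 28 carriers without an Slc symbol (of 36), 2 rose and 4 fell, 4 and 2, and 4 and 5 at 4 h, and 0 and 2, 0 and 1, and 0 and 0 at 24 h. At 4 h, 9.49% of all genes tested rose and 11.4% fell in wt cells. In heterozygous cells these shares were 15.7% and 13.2%, and in homozygous cells 20.1% and 17.5%. At 24 h they were 4.51% and 7.14% in wt, 2.95% and 4.12% in heterozygous, and 3.1% and 5.51% in homozygous cells. The list counts are a description only.

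Some of these genes handle the same substrates as the members. Xpr1, the phosphate exporter, fell at 4 h by 0.69, 0.59 and 0.78 in wt, heterozygous and homozygous cells, where the phosphate importer Slc20a1 rose. Mfsd2a, a lysophospholipid carrier, rose by 1.47, 1.91 and 1.68, and the organic anion carrier Slco4a1 by 1.59, 1.67 and 2.08. The peroxisomal transporter Abcd3 fell by 0.63, 0.67 and 0.60 and the magnesium carrier Nipa1 by 0.39, 0.52 and 0.43.

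Of 36 measured enzymes and storage proteins that use imported substrates (of 45), 4 rose and 3 fell at 4 h in wt, 6 and 2 in heterozygous and 7 and 2 in homozygous cells, and at 24 h 7 and 5, 4 and 4, and 4 and 4. The shares over all genes are those given above for the other lists, and these counts too are a description only. Gfpt2, which makes hexosamine from a glucose derivative and glutamine, rose by 1.39, 1.39 and 1.44 at 4 h and by 0.94, 1.06 and 1.01 at 24 h. Has2, which builds hyaluronan from nucleotide sugars, rose by 1.60, 1.5 and 1.53 at 4 h and 1.45, 0.91 and 1.19 at 24 h. The heme-degrading enzyme Hmox1 rose by 1.02, 1.04 and 1.08 and the creatine kinase Ckb by 0.43, 0.51 and 0.66 at 4 h, and the fatty acid importer of mitochondria Cpt1a fell by 0.57, 0.75 and 0.91. At 24 h the hexokinase Hk2 rose by 0.67, 0.71 and 0.72, and Ldhb, a lactate dehydrogenase subunit, fell by 0.80, 0.70 and 0.86. Cdo1, the enzyme that oxidises cysteine, fell by 1.99, 1.31 and 2.01 at 24 h. All values in these 2 paragraphs are called log2 differences.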

How the data were processed

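RNA of 18 mouse fibroblast samples was measured on Affymetrix arrays, 2 per group in 9 groups taken from the labels. The deposited values are linear intensities per probe set, which the authors made with GCRMA, per the submitters' processing notes. No GCRMA version or scan batch is given in the sources used here.

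Values were converted to log2 as deposited. The array has 45101 probe sets: 64 controls, 34945 with a single symbol, 932 with several and 9160 with none, and 34741 single symbols matched a RefSeq gene table, 0 of them with another symbol. Probe sets at log2 5 or more in at least 2 arrays were kept (18958), and the brightest with a single symbol stood for each of 10078 genes. All 129 members were in this fit with the probe set that the rule chose, and 63 of them had more than 1 probe set.

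A linear model with a mean per group was fitted to all 18 arrays in R 4.3.3 with limma 3.58.1 (9 residual and, in the median, 3.78 prior degrees of freedom, intensity trend), with two-sided tests and Benjamini-Hochberg adjustment over 10078 genes in each of 16 comparisons. Each standard error is that of the fit, for 2 arrays against 2 or, between responses, 4 groups of 2, with the spread pooled over all groups. The fit was checked on simulated data. For wt cells at 4 h it recovered 41.8% of 1.5-fold and 76.1% of 2-fold changes. For the homozygous minus the wt response at 24 h it recovered 20.9% and 56.7%. Same-numbered arrays deviated together within the mutant genotypes, with correlations over all genes of 0.38 to 0.45 in heterozygous and 0.54 to 0.61 in homozygous cells, but from -0.66 to 0.57 in wt cells and from -0.19 to 0.19 over 27 pairs across genotypes. The pairing is read from the data, since no label states it, and a replicate block within each mutant genotype was added as an alternative. Members, substrate classes and gene lists were chosen with earlier results of these data known.

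Genes named with values are up to 10 called rises and 10 falls per response or mutant against wt with no overlap of arrays, 5 each way in other comparisons, up to 4 called members per class, 24 key genes (20 of them members), and genes next to the level threshold. Slc15a3, Slc4a4 and Slc35b3 were added after their values were seen, as were the transport genes without an Slc symbol. Alternatives were no filter or a mean log2 of at least 6, averaged probe sets of a gene, leaving out cross-hybridizing probe sets, equal medians or quantiles of the arrays, adding 16 before the log2, weights for arrays, a fit without the trend or of the compared groups alone, a replicate block, and leaving out each array.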

Additional observations from a re-analysis of the deposited data

Results flagged for a closer look

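In a few members the 2 heterozygous arrays with TGFb moved one way from the untreated arrays and the 2 homozygous arrays the other way; the difference between these mutants was not tested. At 4 h the log2 differences in heterozygous and homozygous cells were -0.055 and 0.038 for the copper importer Slc31a1, 0.135 and -0.355 for the zinc carrier Slc39a9, and 0.183 and -0.261 for the anion exchanger Slc4a2. At 24 h they were 0.184 and -0.29 for Slc35e2, -0.103 and 0.066 for Slc35f5, and 0.302 and -0.215 for Slc39a9. None of these 12 values passed the limma test.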

How the results depend on the processing

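Counts of called members under other processing were as follows. In wt cells at 4 h (32) the count was 21 without a filter, 3 with array weights and 1 with only the groups compared, and in wt cells at 24 h (15) it was 8, 2 and 1. In heterozygous cells at 24 h (7) it was 22 with array weights and 4 with only the groups compared, in homozygous cells at 4 h (40) 68 and 64, and in homozygous cells at 24 h (9) 34 and 23, with 15 after quantile normalization and 17 with equal array medians. For homozygous against wt untreated cells (3) it was 1 without a filter and 0 under both of these settings, and for heterozygous against wt (0) it was 1 with log2 of the value plus 16. For 24 h against 4 h it was 21 and 0 in wt cells (43) and 61 with array weights in homozygous cells (39). With 1 array left out, the counts ran from 14 to 45, 4 to 17, 21 to 44, 2 to 9, 28 to 50 and 2 to 14 for the responses (wt 4 h and 24 h, heterozygous 4 h and 24 h, homozygous 4 h and 24 h), from 0 to 4, 0 to 9 and 0 to 0 for the genotype comparisons (heterozygous against wt, homozygous against wt, homozygous against heterozygous), from 24 to 59, 25 to 42 and 24 to 48 for 24 h against 4 h, and from 0 to 1 and 0 to 3 for the difference from the wt response at 4 h in heterozygous and homozygous cells. Values that changed direction were those of Slc31a1 with the mean of its probe sets (heterozygous 24 h against 4 h -0.036, heterozygous 4 h 0.295, homozygous 24 h against 4 h -0.147) and of Slc37a3 without cross-hybridizing probe sets (wt 24 h against 4 h -0.143). The causes were not tested. Over the 6 responses a member can be called more than once, and calls are counted here, not genes. A replicate block over all groups gave 141 calls instead of 139, 131 of them shared. The block within each mutant genotype, added after the data were seen, gave 136 calls, with 125 shared. Its results for untreated genotype comparisons are not given here. Of 288 named values it lost 14 calls and gained 2. Those not given beside their results were lost calls of Slc6a8 in heterozygous cells at 4 h (adjusted p 0.0623), Slc25a44 in wt cells at 24 h (0.0522), Slc30a9 in homozygous (0.0592) and Slc31a1, Slc37a3 and Slc39a13 in wt cells for 24 h against 4 h (0.054, 0.0558 and 0.0548), and a gained one of Slc30a1 in wt cells at 24 h (0.0321). It changed no other named call in the responses or in 24 h against 4 h. With the lists of log2 8 or 6 in place of 7 the members would number 116 or 142. Dim genes and 2 arrays a group limit the precision.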
